A study of Mus musculus with 8 samples.

Results

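The tripartite motif (TRIM) family was followed in lung neutrophils 24 h after mice had received Streptococcus pneumoniae (SP) or phosphate-buffered saline (PBS). Members were the genes whose symbol is Trim followed by digits and at most 1 letter, with the row of highest mean over all arrays standing for a symbol. Of 68 such symbols in the RefSeq gene table, 60 matched a row, out of 24625 rows in all. Trim5, Trim23, Trim30c, Trim34a, Trim34b, Trim43b, Trim43c and Trim60 had no matched row and were not analysed here. Both groups were wild type (WT) C57BL/6J mice, labelled 6 to 12 weeks old (the methods give a narrower range), given 2.3 µl of bacterial suspension or PBS per g body weight, placed in the left lung by way of the trachea. Neutrophils were taken from lung digests with magnetic beads against Ly6G, and RNA of 4 PBS and 4 SP samples was hybridized to 1 Affymetrix Mouse Gene 1.1 ST array each. Per the methods, the purity of the isolated cells was examined in samples with pneumonia and was high, the few other cells mostly looking like alveolar macrophages. The methods name purchased females and sex-matched groups without stating the sex of the mice studied. The labels number the samples but do not say that each came from its own mouse, so p-values measure the spread between these samples. Values are log2 array signals after robust multi-array averaging (RMA), and a difference is SP minus PBS on that scale.

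TRIM proteins carry a RING finger, 1 or more B-boxes and a coiled coil, followed by a domain that differs between classes and often selects the target. The RING finger accepts a charged ubiquitin-conjugating (E2) enzyme, so most members are ubiquitin ligases, while a few lack the RING. In immune cells several members add ubiquitin to sensors and adaptors of the antiviral and NF-κB pathways, and a subset is itself transcribed in response to interferon, through promoter elements that bind STAT and IRF proteins.

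Several members that were higher in SP carried the core letters of such an interferon-stimulated response element near their start. Promoter windows of RefSeq (GRCm38.p6) reached from 250 bases before to 50 bases after a start and existed for 47 of the 60 members. The letters searched were GAAANNGAAA on either strand, where N is any base; read on the other strand they are TTTCNNTTTC. They occurred in 7 members, and stretches of 30 bases are shown on the strand of the gene with the match in capitals, because 6 of these 7 members were called higher. The exception, Trim2, was called lower:
Trim21 (chr7:102565447-102565476, minus strand): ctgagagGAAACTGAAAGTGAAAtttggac
Trim26 (chr17:36836979-36837008, plus strand): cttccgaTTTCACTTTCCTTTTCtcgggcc
Trim12a (chr7:104315466-104315495, minus strand): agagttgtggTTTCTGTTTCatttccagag
Trim12c (chr7:104353359-104353388, minus strand): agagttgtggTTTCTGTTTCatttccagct
Trim30a (chr7:104465210-104465239, minus strand): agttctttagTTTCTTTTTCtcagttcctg
Trim30d (chr7:104507871-104507900, minus strand): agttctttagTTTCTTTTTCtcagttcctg
Trim2 (chr3:84212791-84212820, minus strand): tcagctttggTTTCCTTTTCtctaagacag
The Trim21 and Trim26 stretches hold overlapping matches. Trim30a has a match at each of its 2 starts, and 1 of them is shown. Trim12a and Trim12c have near-copies of 1 promoter, identical at 95.4% of aligned bases, and Trim30a and Trim30d at 93.9%, so these pairs are not independent examples. Counted from the start, whose first base is 1, the match lies at 14 to 29 in Trim21, at 11 to 20 in Trim12a and at -160 to -145 in Trim26.

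Among all 27025 genes with a promoter window, 3.99% held the letters at 1 or more of their starts. Of the members with a window, they were present in 5 of the 8 called at least 2-fold higher in SP. They were also present in 1 of the 5 called at least 2-fold lower (Trim2, at 1 of its 5 starts) and in 0 of the 20 not called. Over all members called, at any size, they were present in 6 of 19 called higher and 1 of 8 called lower. Among the members that rose without the letters in their windows were Trim25, Trim56 and Trim69, and on chromosome 7 Trim6 and Trim72. Trim14 had no window. A further element, TTCNNNGAA, which reads the same on both strands and is bound by STAT dimers, lay in 5 of the 47 members (10.6%) against 9.55% of all genes. The windows of the members at least 2-fold higher had a median GC content of 49.8% and a median of 4 CpG pairs. Those at least 2-fold lower had 69.7% and 29, against 52.8% and 7 over all genes. A match describes these letters, not a bound site, and no binding was measured.

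The family differed between SP and PBS in both directions, with 34 of the 60 members called. Of the 60, 21 were called higher in SP (35%) at an adjusted p of 0.05 in limma, against 21.5% of all rows. A further 13 members were called lower (21.7%), against 22.6% of all rows. At least 2-fold higher were 9 members (15%), against 6.37% of all rows, and at least 2-fold lower were 8 members (13.3%), against 11.3%. The PBS and SP arrays did not overlap in 38 members (63.3%), against 49.0% of all rows. The median difference was 0.18 over the members and 0.10 over all rows. The share of falling members was close to that of the array as a whole, while the shares of rising members lay above it in this fit. How calls split depended on scaling: with arrays centred on their median, which moved the median of all rows by 0.28, 39 members were called higher and 11 lower, or 78.0% of calls higher in place of 61.8%. Over all rows 77.9% of calls were then higher in place of 48.9%, close to the share among the members.

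**Figure D1:**
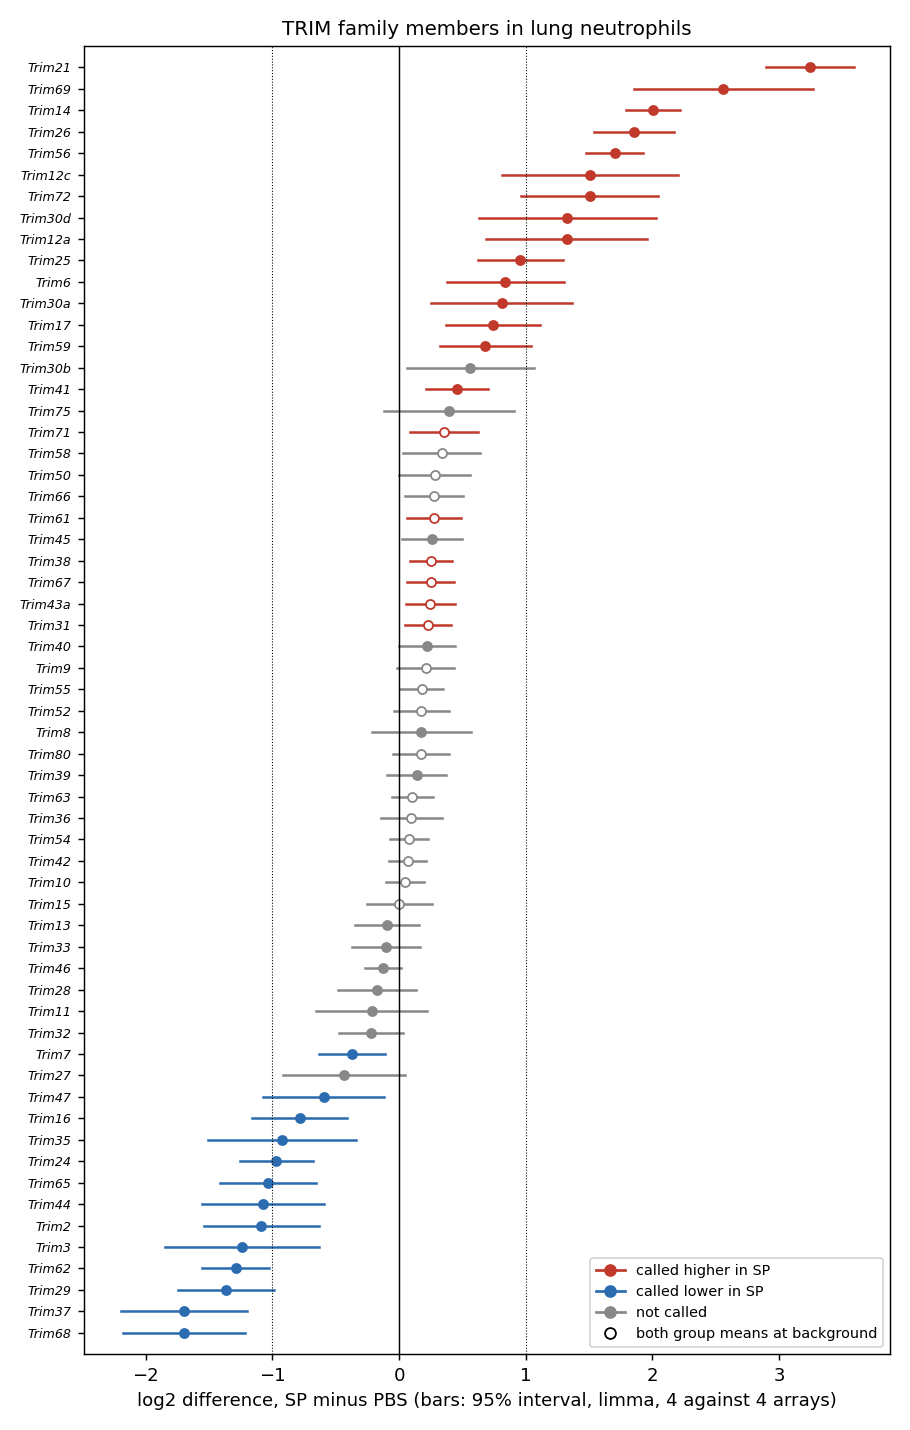
Log2 difference between SP and PBS (x axis) for each of the 60 TRIM members (y axis), with the 95% interval from limma over 4 against 4 arrays; dotted lines mark 2-fold and open circles mark members whose group means both lay at the background level. Trim21 lies farthest to the right at 3.24 and Trim68 farthest to the left at -1.70, and the open circles lie between 0.00 and 0.36.

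Neutrophil markers were bright in both groups, with mean signals of the 10 genes of 12.34 to 12.66 in PBS and 11.87 to 12.91 in SP, and Csf3r, the receptor of G-CSF, at 12.97 ± 0.20 and 12.81 ± 0.12 (mean ± SD, n = 4). Markers of lung tissue were bright too and were lower in SP. Mean signals of 9 ciliated cell genes were 8.74 to 9.61 in PBS and 6.27 to 6.88 in SP, those of 10 endothelial genes 10.26 to 11.23 and 8.70 to 9.88, and those of 7 B cell genes 7.64 to 8.49 and 5.95 to 7.12. All 9 ciliated, all 5 club cell, 7 of 8 alveolar type 2, 5 of 6 alveolar type 1, 8 of 10 endothelial and 6 of 7 B cell genes were called lower. Of 7 alveolar macrophage genes 4 were called lower and 1 higher, and of 8 fibroblast genes 2 were called lower. Of 7 monocyte and macrophage genes 3 were called higher, as was 1 of 7 T cell genes. In the neutrophil list itself Retnlg (-0.47), Mmp8 (-0.76) and Mmp9 (-0.59) were called lower. Within groups, PBS replicate 2 had the highest mean of the ciliated, club, alveolar type 2, alveolar type 1 and endothelial lists, and SP replicate 3 the lowest mean of each. In such bulk samples, fewer cells of a type and less RNA per cell cannot be told apart. As a measure of background, 6 Y-linked genes read 4.33 to 6.20 over the 8 arrays, although the sex of the mice was not given; all but Sry stayed at or below 4.97, which is used here as the background level.

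**Figure D2:**
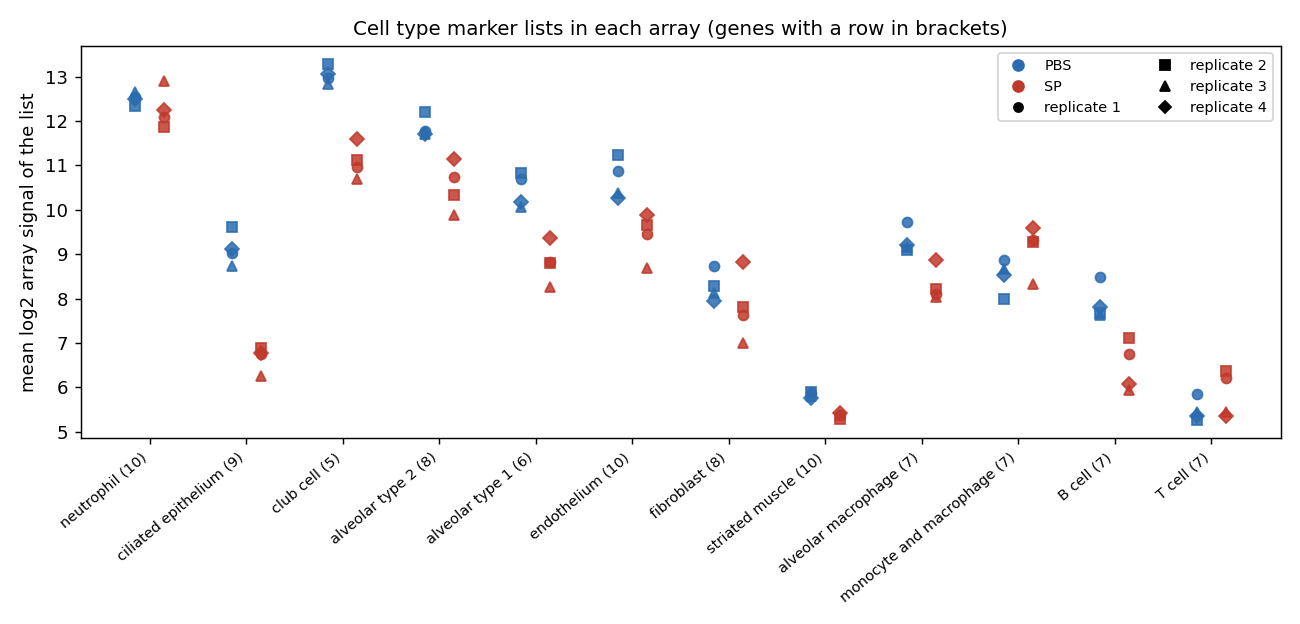
Mean log2 signal of each cell type marker list (y axis) in the 4 PBS and 4 SP arrays, with the symbol giving the replicate. Ciliated markers lie apart, from 8.74 to 9.61 in PBS and from 6.27 to 6.88 in SP, while neutrophil markers overlap.

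Among the members with the largest rises were ligases and adaptors of antiviral defence. Trim21, a cytosolic antibody receptor that directs antibody-coated particles to the proteasome, read 8.06, 7.50, 8.10 and 7.71 in PBS replicates 1 to 4 and 11.22, 11.21, 11.03 and 10.89 in SP replicates 1 to 4, the order used throughout. Every SP array thus lay more than 2 log2 units above every PBS array. The difference was 3.24 or 9.46-fold (SE 0.15, 95% interval 2.89 to 3.59, adjusted p = 4.34e-06), and PBS replicate 2 was the lowest array.

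Trim14, which lacks a RING and assembles signalling complexes on the mitochondrial adaptor Mavs, read 7.81, 7.75, 7.78 and 7.63 in PBS and 9.71, 9.69, 9.97 and 9.63 in SP. The SP arrays clustered 4.02-fold higher (difference 2.01, SE 0.09, 95% interval 1.80 to 2.22, adjusted p = 4.12e-06). Trim26, a ligase described to act on nuclear Irf3, read 7.46, 7.55, 7.60 and 7.52 in PBS and 9.39, 9.29, 9.77 and 9.09 in SP. Its groups were apart by 1.85, or 3.61-fold (SE 0.14, 95% interval 1.54 to 2.17, adjusted p = 3.01e-05), and SP replicate 3 was the highest array, as it was for Trim14. Trim56, a ligase linked to the cGAS and Sting pathway, read 9.05, 9.22, 9.21 and 9.24 in PBS and 10.96, 10.998, 10.93 and 10.65 in SP. It was 3.25-fold higher in SP (difference 1.70, SE 0.10, 95% interval 1.48 to 1.92, adjusted p = 1.02e-05). In these 3 genes the spread within PBS was far smaller than the gap between groups.

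Trim69 and Trim72 were at background in PBS and above it in SP. Trim69, a RING ligase found at centrosomes and described as an antiviral factor, read 4.66, 4.37, 4.81 and 4.46 in PBS, all at or below the background level, and 7.42, 7.94, 6.38 and 6.81 in SP. The fitted difference was 2.56 (SE 0.31, 95% interval 1.86 to 3.27, adjusted p = 0.000322), and measured from the background level the rise was at least 4.49-fold. Trim72, known as MG53 and best known for membrane repair in striated muscle, read 4.43, 4.47, 4.53 and 4.34 in PBS and 6.37, 6.44, 5.40 and 5.58 in SP. Its fitted difference was 1.51 (SE 0.24, 95% interval 0.97 to 2.05, adjusted p = 0.0013), which measured from the background level was at least 1.97-fold; its SP signals did not all exceed those of Sry. In both genes SP replicates 1 and 2 were brighter than SP replicates 3 and 4. The mean of 7 T cell marker genes was likewise 6.20, 6.36, 5.45 and 5.36 in SP replicates 1 to 4, against 5.84, 5.26, 5.44 and 5.37 in PBS. Of these genes Cd3d alone was called, and it was highest in SP replicate 3, at 5.71, 5.67, 6.22 and 5.22 in SP. The mean of the B cell list was also higher in SP replicates 1 and 2, at 6.75, 7.12, 5.95 and 6.08, but lay below PBS (7.64 to 8.49). The part of such cells in these rises was not tested. Of 10 striated muscle genes, 2 were called higher (Acta1, 0.49, and Ckm, 0.43) and 4 lower (Tnni3, Myl7, Myh7 and Ryr2). Their mean was 5.77 to 5.90 in PBS and 5.29 to 5.43 in SP. Of the defining genes, Myh6 read 4.30 ± 0.06 and 4.43 ± 0.15, and Actc1 8.48 ± 0.46 and 8.40 ± 0.71. The part of muscle transcripts in the Trim72 signal was not tested. Trim54, Trim55 and Trim63, the muscle RING finger members, were at background in both groups.

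The protein-coding genes next to these members were looked up after the values had been seen. Trim72 lies between Pycard, the adaptor ASC of inflammasomes, and Itgam, the integrin chain CD11b. Pycard rose from 7.03 ± 0.25 to 8.83 ± 0.17 and Itgam from 12.27 ± 0.21 to 12.59 ± 0.06 (mean ± SD, n = 4). Trim69 lies between B2m, the light chain of MHC class I, at 13.42 ± 0.04 and 13.69 ± 0.07, and Terb2, at 4.49 ± 0.04 and 4.76 ± 0.18. Whether transcripts of a neighbour reached the probes was not tested.

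**Figure D3:**
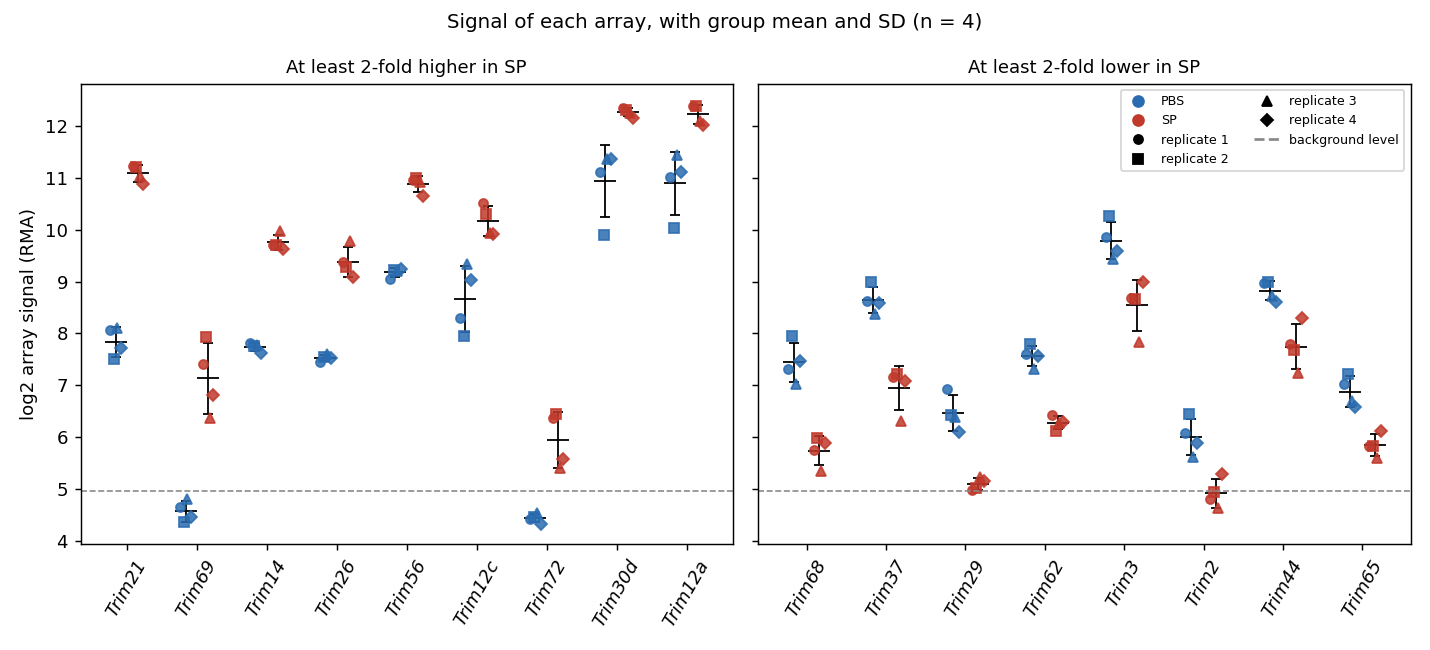
Log2 signal (y axis) of each array for the 9 members called at least 2-fold higher in SP (left) and the 8 called at least 2-fold lower (right), with group mean and SD (n = 4) and the background level of 4.97 as a dashed line. No PBS point of these 17 members overlaps the SP range, and the PBS points of Trim69 and Trim72 lie below the dashed line.

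The other large rises came from 1 run of genes on chromosome 7. Between Trim6 and Trim30d the RefSeq annotation places 10 TRIM genes, 6 of which had a row, and 1 other protein-coding gene. Trim12c, a relative of the retroviral restriction factor TRIM5, read 8.30, 7.96, 9.33 and 9.04 in PBS and 10.52, 10.30, 9.94 and 9.91 in SP. Its difference was 1.51 or 2.85-fold (SE 0.30, 95% interval 0.82 to 2.20, adjusted p = 0.00452). Trim12a, with a near-copy of the Trim12c promoter, read 11.01, 10.02, 11.44 and 11.11 in PBS and 12.38, 12.38, 12.09 and 12.02 in SP. It was 2.51-fold higher in SP (difference 1.33, SE 0.28, 95% interval 0.69 to 1.96, adjusted p = 0.00554). Trim30d read 11.12, 9.90, 11.37 and 11.35 in PBS and 12.34, 12.31, 12.25 and 12.16 in SP, a difference of 1.33 or 2.51-fold (SE 0.30, 95% interval 0.63 to 2.03, adjusted p = 0.00862). In all 3 genes the groups were apart, and the PBS arrays spread more widely than the SP arrays.

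Trim30a, which restrains NF-κB signalling by promoting loss of Tab2 and Tab3, read 12.06, 11.19, 12.38 and 12.33 in PBS and 12.85, 12.86, 12.75 and 12.75 in SP. The difference was 0.81 (SE 0.24, 95% interval 0.25 to 1.37, adjusted p = 0.0277), and 4 of the alternatives to this fit lost the call. Trim30b read 11.57, 11.09, 12.05 and 12.07 in PBS and 12.39, 12.24, 12.36 and 12.02 in SP. Its groups overlapped and it did not pass the test, with a difference of 0.56 (SE 0.22, 95% interval 0.06 to 1.06, adjusted p = 0.0661). Trim6, which builds free ubiquitin chains that activate Ikbke, read 6.25, 5.71, 6.36 and 6.16 in PBS and 6.81, 6.54, 7.34 and 7.14 in SP. It rose by 0.84 (SE 0.20, 95% interval 0.38 to 1.30, adjusted p = 0.0107). Some genes of this run have near-copies of 1 promoter, and the similarity of their transcripts was not measured. Probes may catch several of these genes, so the split of signal between them is uncertain.

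PBS replicate 2 was the lowest PBS array in all 6 genes of the run. The transcription factor Irf7 was also lowest there, at 9.89, 8.88, 10.59 and 10.65 in PBS. So were the means of the neutrophil (12.34), monocyte and macrophage (8.00), alveolar macrophage (9.10) and T cell (5.26) lists. Those of the ciliated, club, alveolar type 2, alveolar type 1 and endothelial lists were highest there. Why the run was low in that array was not tested. Without PBS replicate 2 the difference of Trim30d was 0.98, below 2-fold, that of Trim12a 1.03, that of Trim12c 1.28 and that of Trim30a 0.54, and all 4 were still called. The 20 protein-coding genes flanking the run, 16 of them olfactory receptors, marked its edges: the 19 with a row read 4.16 to 6.21 in all arrays and differed by -0.01 to 0.56.

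**Figure D4:**
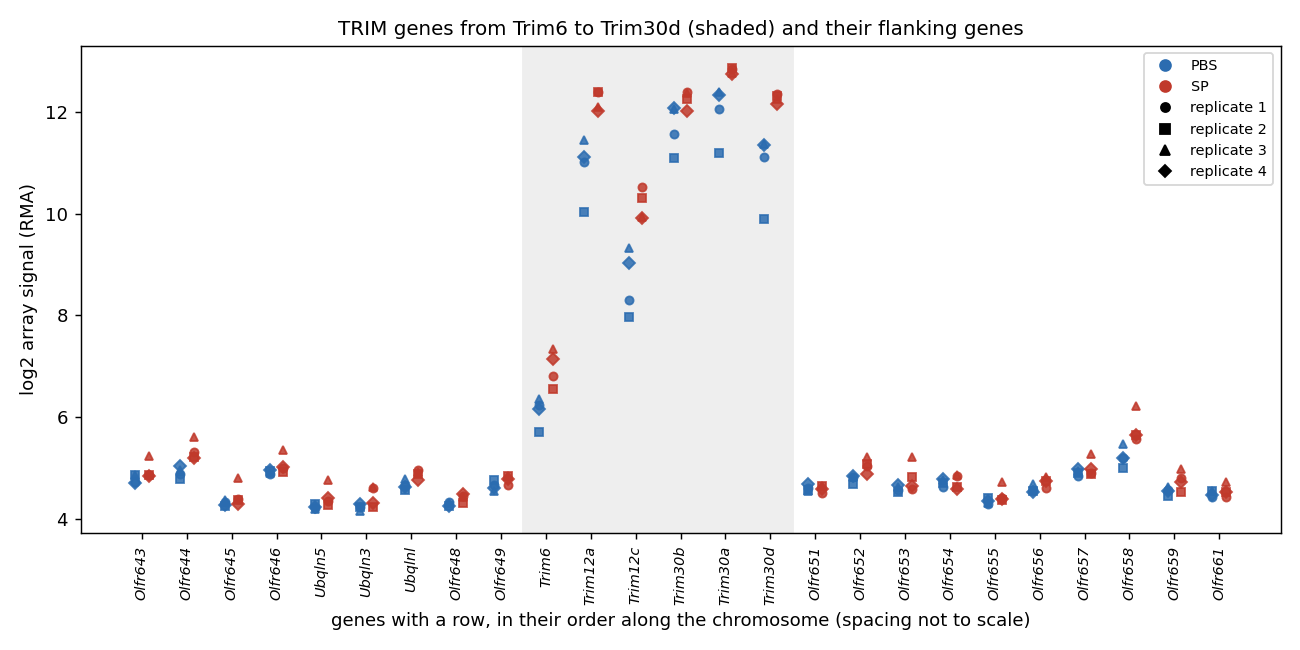
Log2 signal (y axis) in each array for the TRIM genes with a row from Trim6 to Trim30d and their flanking genes, in chromosomal order (x axis). The 5 genes from Trim12a to Trim30d read at or above 7.96 in every array, the flanking genes stay at or below 6.21, and the PBS square (replicate 2) is the lowest point of each TRIM gene.

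Of the 13 members listed as antiviral or interferon-linked ligases, 11 were called higher, 1 lower and 1 (Trim30b) did not pass, against 21.5% of all rows called higher. This list was drawn up with results known and does not hold Trim68 or Trim29, which fell and are also linked to innate signalling. Their median difference was 1.33, against 0.10 over the 47 other members and 0.10 over all rows. Trim25, which ubiquitinates the RNA sensor RIG-I, read 10.54, 10.32, 10.89 and 10.87 in PBS and 11.65, 11.45, 11.82 and 11.53 in SP. It rose by 0.96, just under 2-fold (SE 0.15, 95% interval 0.62 to 1.29, adjusted p = 0.00115). Trim38, a negative regulator of Toll-like receptor signalling, was called at a difference of 0.25 (SE 0.07, 95% interval 0.08 to 0.42, adjusted p = 0.024), but with 4.31, 4.31, 4.39 and 4.36 in PBS and 4.64, 4.55, 4.70 and 4.49 in SP it stayed at background and lost the call in 7 of the alternatives. Trim65, a ligase of the RNA sensor Ifih1 (MDA5), was the member of this list that fell, from 7.02, 7.22, 6.69 and 6.59 in PBS to 5.83, 5.84, 5.60 and 6.13 in SP. It was 2.05-fold lower (difference -1.03, SE 0.17, 95% interval -1.41 to -0.65, adjusted p = 0.00144).

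Members called at least 2-fold lower came from several branches of the family. Trim68, a PRY-SPRY ligase described in control of interferon production, read 7.32, 7.94, 7.03 and 7.47 in PBS and 5.75, 5.98, 5.34 and 5.89 in SP. It was 3.25-fold lower (difference -1.70, SE 0.21, 95% interval -2.18 to -1.22, adjusted p = 0.000373). Trim37, the MATH domain member that limits centriole assembly, read 8.62, 8.99, 8.37 and 8.59 in PBS and 7.16, 7.22, 6.32 and 7.09 in SP. The fall was 3.24-fold (difference -1.70, SE 0.22, 95% interval -2.20 to -1.20, adjusted p = 0.000461). Trim62, a ligase of the fungal response adaptor Card9, read 7.60, 7.79, 7.32 and 7.57 in PBS and 6.43, 6.12, 6.28 and 6.30 in SP. Its signal was 2.45-fold lower (difference -1.29, SE 0.11, 95% interval -1.55 to -1.03, adjusted p = 6.9e-05). None of these 3 had overlapping groups.

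Trim3 and Trim2, members with NHL repeats known best from neurons, both fell. Trim3 read 9.85, 10.26, 9.44 and 9.59 in PBS and 8.69, 8.66, 7.84 and 8.99 in SP, 2.36-fold lower (difference -1.24, SE 0.26, 95% interval -1.85 to -0.64, adjusted p = 0.00606). Trim2 read 6.08, 6.46, 5.63 and 5.88 in PBS and 4.81, 4.95, 4.65 and 5.30 in SP, where 3 of 4 arrays were at or below background. Its fitted difference was -1.09 (SE 0.20, 95% interval -1.54 to -0.63, adjusted p = 0.00286), and with SP values raised to the background level the fall was 1.94-fold. Trim29 and Trim44 lack a RING. Trim29, abundant in epithelia and described as a brake on innate signalling in alveolar macrophages, read 6.94, 6.42, 6.39 and 6.10 in PBS and 4.98, 5.02, 5.23 and 5.15 in SP. It was 2.57-fold lower (difference -1.36, SE 0.17, 95% interval -1.74 to -0.98, adjusted p = 0.000343). Its SP arrays read just above the background level and below the SP signals of Sry, so the size of this fall is uncertain. Trim44, which carries a deubiquitinase-type zinc finger, read 8.97, 8.99, 8.72 and 8.61 in PBS and 7.79, 7.68, 7.23 and 8.29 in SP, a 2.11-fold fall (difference -1.08, SE 0.21, 95% interval -1.55 to -0.60, adjusted p = 0.00393).

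Most epithelial and endothelial markers moved the same way as these 8 falls, while of 8 fibroblast genes 2 were called lower. PBS replicate 2 was the highest PBS array in 7 of the 8 members, and SP replicate 3 the lowest SP array in 6 of the 8, as they were for the epithelial and endothelial lists. In the neutrophil list PBS replicate 2 had the lowest PBS mean (12.34) and SP replicate 3 the highest SP mean (12.91). With both PBS replicate 2 and SP replicate 3 left out, all 8 members were still called, but 4 of 8 were at least 2-fold lower. Trim68 then differed by -1.40, Trim37 by -1.37, Trim62 by -1.22 and Trim29 by -1.42. Trim3 differed by -0.85, Trim2 by -0.85, Trim44 by -0.85 and Trim65 by -0.84. The part of the tissue markers in these falls was not tested.

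The calls were also counted by domain class, to be read against 21.5% of all rows called higher and 22.6% called lower. The PRY-SPRY class (C-IV), whose C-terminal domain binds protein targets, held 31 members, of which 15 were called higher and 7 lower, with a median difference of 0.34. The 29 members outside it had 6 higher and 6 lower and a median of 0.10, shares near those of all rows. The share of C-IV members called lower was also near that of all rows. Both group means were at background in 13 of the 29 members outside C-IV and in 6 of the 31 within it. Of the members called higher, Trim31, Trim61, Trim67 and Trim71 outside C-IV and Trim38 and Trim43a within it were at background. The contrast between classes thus rests partly on background rows. Within C-IV, the 12 members of the antiviral list had 10 higher and 1 lower, and the other 19 had 5 higher and 6 lower with a median of 0.05. That list was drawn up with results known, so this split describes the list and does not test it. The classes whose members build microtubule contacts through a COS box, C-I with 4 members and C-II with 3, had 1 call between them (Trim67, at background). Both group means were at background in 3 of the 4 C-I members and in all 3 C-II members, so these counts say little about the classes. Mid1 and Mid2, given below, were not counted in a class.

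The chromatin class C-VI, with a PHD finger and bromodomain, held 4 members. Trim24, a nuclear receptor cofactor, fell from 8.06, 8.44, 7.89 and 8.14 in PBS to 7.003, 7.17, 7.28 and 7.21 in SP (difference -0.97, SE 0.13, 95% interval -1.25 to -0.68, adjusted p = 0.000473). Trim33, a regulator of TGF-β signalling, was bright in both groups at 10.35, 10.18, 10.44 and 10.48 in PBS and 10.37, 10.48, 10.03 and 10.17 in SP. It did not pass the test (difference -0.10, SE 0.12, 95% interval -0.37 to 0.17, adjusted p = 0.47). Trim28, the corepressor that silences retroelements, did not pass either, at 9.06 ± 0.14 and 8.89 ± 0.25 (adjusted p = 0.292). Of 8 partner genes of Trim28, a list also drawn up with results known, 4 were called lower and 1 higher (all rows: 22.6% and 21.5%). The heterochromatin protein gene Cbx5 differed by -1.58, the remodeller Chd3 by -1.33 and the deacetylase Hdac2 by -1.14. Trim8, a C-V ligase that promotes NF-κB signalling, overlapped between groups at 9.71, 9.85, 9.64 and 9.73 in PBS and 10.24, 9.95, 9.39 and 10.06 in SP. Its difference was 0.18 (SE 0.17, 95% interval -0.21 to 0.56, adjusted p = 0.397), and without SP replicate 3 it was 0.35 and passed.

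**Figure D5:**
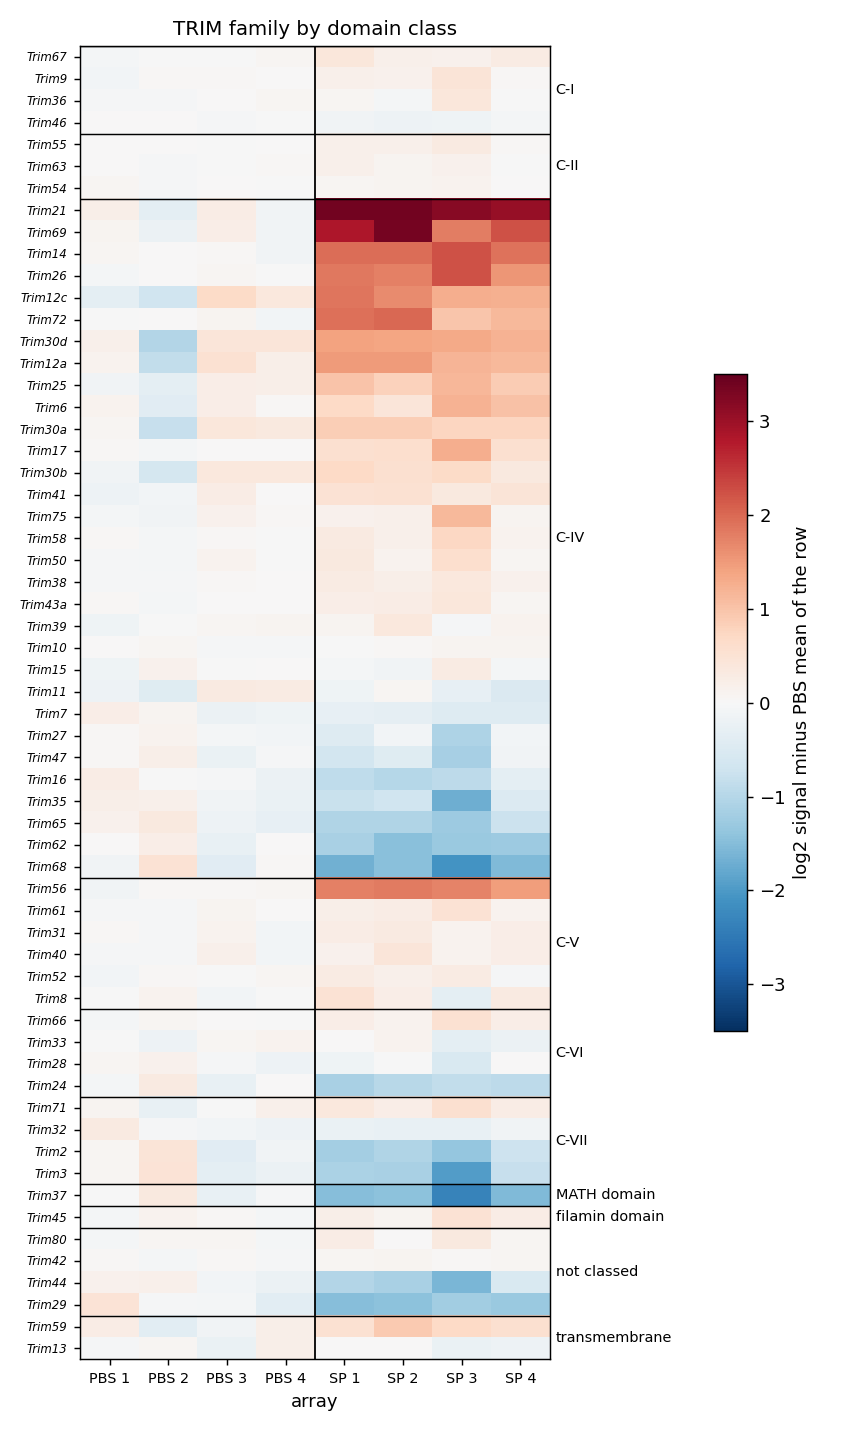
Log2 signal of each array minus the PBS mean of the row (colour) for the 60 members (y axis), ordered by domain class and difference, with arrays on the x axis. Red SP cells stand mostly in class C-IV and at Trim56, and blue SP cells in C-IV, C-VII, Trim37, Trim44 and Trim29.

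The remaining members above background moved by less than 2-fold. Higher in SP were Trim17 (0.74), the membrane-bound Trim59 (0.68) and Trim41 (0.46). Lower in SP were the C-IV members Trim35 (-0.92), Trim16 (-0.79), Trim47 (-0.60) and Trim7 (-0.37). Trim47 was called at an adjusted p of 0.048 with overlapping groups. Another 13 members above background in a group did not pass the test, with differences from -0.44 (Trim27) to 0.56 (Trim30b).

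A further 19 members had both group means at or below the background level. They read 3.98 to 5.17, and 6 of them were called higher at differences of 0.23 to 0.36, and the differences of all 19 were above 0. All 6 Y-linked genes also had higher means in SP, and 15% of the 7133 rows at that level were called higher. SP replicate 3 was the highest SP array in 13 of the 19. The 6 called were Trim31, Trim38, Trim43a, Trim61, Trim67 and Trim71. The 5 Y-linked genes at this level differed by 0.08 to 0.20, of which Kdm5d was called, and Sry, which read higher, differed by 0.48 and was called.

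Relatives of the family under other names moved in both directions. Pml, the organizer of nuclear bodies, read 8.50, 8.41, 8.11 and 8.10 in PBS and 10.55, 10.46, 10.90 and 10.44 in SP, 4.96-fold higher (difference 2.31, SE 0.14, 95% interval 1.99 to 2.63, adjusted p = 1.29e-05). Mefv, which encodes pyrin and forms an inflammasome, read 8.47, 7.72, 9.60 and 9.36 in PBS and 11.75, 11.72, 11.88 and 11.49 in SP, 7.60-fold higher (difference 2.93, SE 0.38, 95% interval 2.06 to 3.79, adjusted p = 0.000468). The midline genes split: Mid2 read 9.32, 9.81, 8.72 and 8.99 in PBS and 7.04, 7.38, 6.08 and 7.77 in SP, 4.41-fold lower (difference -2.14, SE 0.37, 95% interval -2.99 to -1.29, adjusted p = 0.00217). As in the members that fell, PBS replicate 2 was the highest and SP replicate 3 the lowest array of Mid2. Mid1 differed by 0.06 and did not pass (95% interval -0.55 to 0.67, adjusted p = 0.855).

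Ubiquitin reaches a TRIM ligase through an activating (E1) and a conjugating (E2) enzyme. The counts of these and the following lists stand against 21.5% of all rows called higher and 22.6% called lower. The lists were drawn up with earlier results of these data known, so the counts describe them and do not test them. Of 17 E1 and E2 genes, 8 were called higher and 1 lower, with a median of 0.30. The largest rises were the ISG15 pathway enzymes Ube2l6, from 8.84, 8.21, 9.01 and 8.79 in PBS to 11.94, 11.89, 11.81 and 11.77 in SP (3.14), and Uba7 (1.38). Ube2e2 differed by -1.03. Of 13 other ligases of innate signalling, 10 were called higher, 7 of them at least 2-fold. They were the ISG15 ligase Herc6 (3.39), Traf3 (2.34), Traf6 (2.19), Birc2 (1.26), Rnf135 (1.26), Birc3 (1.20) and Traf2 (1.16). The gene that did not pass and went furthest the other way was Rnf125, at -1.004 (adjusted p = 0.0747).

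Of 18 signalling proteins that TRIM ligases act on, 14 were called higher and 1 lower, with a median of 0.76. The kinase Ikbke read 7.58, 7.40, 7.28 and 7.45 in PBS and 12.45, 12.36, 12.38 and 12.31 in SP, a difference of 4.95 or 30.9-fold. Its partner kinase Tbk1 rose by 2.54, the sensors Ifih1 by 2.76, Cgas by 2.02 and Ddx58 (RIG-I) by 1.62. The factors Irf7 and Irf5 rose by 2.38 and 2.32, and Ikbkg by 1.17. Mavs, the adaptor on which Trim14 acts, was the gene that fell, from 8.99, 8.94, 8.47 and 8.62 in PBS to 7.09, 7.34, 6.44 and 7.85 in SP (difference -1.58, adjusted p = 0.00237), with SP replicate 3 lowest. Of 8 interferon receptors and transcription factors, 7 were called higher and 1 (Ifngr1) lower, with Stat2 at 2.79, Irf1 at 1.71, Irf9 at 1.33 and Ifnar1 at 1.19.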

How the data were processed

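Messenger RNA of 8 samples of lung neutrophils, 4 PBS and 4 SP by their titles, was measured on Affymetrix Mouse Gene 1.1 ST arrays. The deposited values are log2 signals that the authors made by RMA: background and GC and sequence corrections, quantile normalization, then summary of the probes of a gene by median polish, with a custom mapping of probesets to genes. The submitters' processing notes name Affymetrix Expression Console, RMA and Partek, and a genome build is not given in the sources used here. Quantile normalization makes values relative within an array, so a change in total RNA per cell cannot be read from them. The number of arrays limits the precision.

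Row identifiers were matched without versions to RefSeq genes of GRCm38.p6, which named 80.9% of 24625 rows. SP and PBS were compared over all rows with limma 3.58.1 (lmFit and eBayes, R 4.3.3), in two-sided tests whose p-values were adjusted by Benjamini-Hochberg over every row. A call needed an adjusted p of at most 0.05, and the 2-fold count also a difference of at least 1. The one-way ANOVA of the methods was run as an alternative. On simulated data with 200 changed rows of 24625, limma recovered 76% of differences of 1 and 94% of differences of 2, with 10 false calls. In that simulation rows varied independently and few differed, so its rates need not hold for these arrays. Replicate numbers were not taken as pairs in the main fit, since the labels do not say whether they pair the samples. Same-numbered PBS and SP arrays deviated from their group means with correlations of 0.02, 0.03, 0.35 and -0.27. So few values cannot decide whether the samples were paired.

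Members described with array values were those called at 2-fold, the 10 with the highest mean signal, those the study names (Trim34a among them, without a row) and a list of antiviral members. Others are given in counts or as part of a class or list, as Trim24 is with its array values. The members and lists were chosen with earlier results of these data known. The background level was taken after the values had been seen, as the highest value of 5 Y-linked genes, leaving out Sry. Lower bounds of folds raise each value below it to it. Promoter windows and coordinates are those of RefSeq (GRCm38.p6), and their identity is over aligned bases of a global alignment. Figures were drawn with Python 3.11.15. Values of 1 listed gene are not reported here, although it enters the counts. The microRNA arrays were not analysed here.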

Additional observations from a re-analysis of the deposited data

Results flagged for a closer look

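Across 24 members described with array values (all such members but Trim24), the gap of 1 array to the others of its group was tested by Dixon's ratio. The test used its 95% critical value in 48 groups of 4 arrays, and chance flags about 1 group in 20. It was exceeded in 3. Trim30d in PBS replicate 2 read 9.90, while the other PBS arrays read 11.12 to 11.37, and its difference between SP and PBS was below 2-fold without that array. Trim37 in SP replicate 3 read 6.32, with the other SP arrays at 7.09 to 7.22. Trim56 in PBS replicate 1 read 9.05, with the other PBS arrays at 9.21 to 9.24. Trim37 and Trim56 remained called at 2-fold with each array left out in turn.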

How the results depend on the processing

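The main fit called 21 members higher and 13 lower, 9 and 8 of them at least 2-fold. Members called higher numbered 39 (65%) with arrays centred on their median, when 57.7% of all rows were called higher, and 13 with rows of below-median signal left out, which removed members from the test. Members called at least 2-fold higher numbered 5 with limma treat, which tests against 2-fold. Members called at least 2-fold lower numbered 4 with array weights, 4 with arrays centred on their median, 5 with another quantile normalization and 4 without both PBS replicate 2 and SP replicate 3, an alternative chosen after seeing the data. With limma treat 0 were called lower, where 4 had an unadjusted p of at most 0.05 and the one-way ANOVA of the methods called 8 at 2-fold. Trim33 turned from -0.10 to 0.18 with centred arrays and was not called in either. Leaving out 1 array at a time gave 14 to 22 members higher, 10 to 12 lower, 8 to 10 at least 2-fold higher and 6 to 9 at least 2-fold lower. With the replicate number as a block, counts were 15, 13, 9 and 8, and the 6 members lost lay at background. Leaving limma treat aside, 19 of the same 24 members, which do not include Trim24, kept their call at an adjusted p of 0.05 and their direction under every alternative. This counts only alternatives in which a member was tested. All 17 called at 2-fold in the main fit were among them, but the call did not ask for 2-fold, and some fell below it as counted above. Trim38 and Trim30a lost their call in some, and Trim8 and Trim30b gained one in some. The causes of these changes were not tested.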
